A study of Capra hircus with 6 samples.

Results

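The miR-378 family was followed across 6 small RNA libraries from goat back muscle. Its members were taken from the deposited list of expressed miRNAs as every distinct name that contains miR-378 with no further digit, with any paralog letter, arm, species prefix or variant suffix. This gave 41 of 1120 distinct names, and no name with a further digit was listed. The family was chosen by its number of names and of substitutions in that list, so these counts are a description. The rule compared no levels between the stages. However, the list holds expressed names only, and 13 of the 41 were counted in libraries of newborn animals alone. All libraries were made from total RNA of Haimen goats, taken from the longissimus dorsi, a long muscle along the spine. Of these, 3 came from fetuses at day 75 of pregnancy and 3 from newborn animals, called lambs, at 1 day of age. Sex and treatment are not given in the labels. Nor do they tie each library to an animal of its own, so that p-values rest on a spread between libraries that may be technical. The comparison asks how the miRNAs of this muscle differ between the fetal stage and birth.

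The miR-378 hairpin lies within PPARGC1B, the gene of a coactivator of mitochondrial genes, and in goat assembly ARS1.2, as annotated by RefSeq, the single annotated MIR378 gene is likewise spanned by PPARGC1B. A hairpin releases a mature strand from its 5′ arm and another from its 3′ arm, and the seed, bases 2 to 8 of the mature strand, carries most of the pairing with target mRNAs. In mice, both strands are known as regulators of mitochondrial fatty acid use, and in mouse myoblasts the 3′ strand promotes differentiation by repressing a repressor of MyoD. Reads of 1 miRNA that start or end at other bases, or carry other bases, are called isomiRs. In the deposited names, L stands for the 5′ end and R for the 3′ end, each with the number of bases added to or missing from the entry of the named species, and ss marks substitutions with their position. This reading rebuilt the listed sequence in 24 of 24 miR-378 names whose entry could be taken from the same table.

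The goat entries are shown first, as deposited in DNA letters, 5′ to 3′, with the seed in capitals, because all later comparisons refer to them.
chi-miR-378-3p: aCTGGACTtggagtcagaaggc
chi-miR-378-5p: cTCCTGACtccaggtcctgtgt
The next sequences are the other high-level members, with capitals for each base that differs from the goat 3′ strand or its listed 3′ extension.
bta-miR-378_R+1: actggacttggagtcagaaggct
bta-miR-378_R+1_1ss22CA: actggacttggagtcagaaggAt
bta-miR-378_L-1R+1_1ss10GT: ctggacttTgagtcagaaggct
bta-miR-378c: actggacttggagtcagaagT
hsa-miR-378d: actggacttggagtcagaaA
bta-miR-378c_R-1_1ss20GT: actggacttggagtcagaaT
bta-miR-378d_R-2: ctggacttggagtcagaagA
The prefixes stand for goat (chi), cattle (bta) and human (hsa). In these lines, differing bases lie near the 3′ end except in bta-miR-378_L-1R+1_1ss10GT. Apart from the goat entries, only bta-miR-378c and hsa-miR-378d are unchanged entries.

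By name, the family was spread over 8 species prefixes. Cattle entries gave 24 names, human entries 7, and goat entries 2, and the other 8 names came from 5 further prefixes. Without letter there were 14 names, with the letter c 11, with d 9, and with a, b and i 2 each, and 1 name carried g. Only 4 names were classed by the authors as identical with miRBase, the public miRNA registry. These were both goat entries, bta-miR-378c and hsa-miR-378d. Another 36 names differed from their entry and 1 was a new arm.

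A substitution was named in 25 of the 41 names (61.0%), beside 22.2% of the 1079 other listed names. End changes without a substitution accounted for 12 names, substitutions without an end change for 6, and both together for 19. The 3′ end was longer than the entry in 21 names and shorter in 7, and R+1, a gain of 1 base, was the most frequent form with 18 names. The 5′ end was changed in 7 names, 5 of them shortened. Other families with many names had shares with a substitution of 78.1% (miR-2285, 32 names), 53.6% (miR-339, 28 names), 40.7% (miR-1260, 27 names), 52.0% (miR-6236, 25 names) and 73.7% (miR-6240, 19 names). The share in miR-378 lay within their range, and no test was made of it.

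The 26 substitutions in the names were most often G to T, with 8, followed by A to G with 6, C to A with 4 and T to A with 3. Positions 19 to 22 held 14 of them. The most frequent single substitution was G20T, in 4 names, followed by A12G and A19G in 3 names each. These positions are counted from 1 at the 5′ end of each entry, so that they refer to entries of different species.

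Aligned with the goat 3′ strand itself, the names described closely related sequences. Whether names with a letter come from goat genes of their own was not checked. The 41 names gave 39 distinct sequences of 20 to 24 nt, of which 12 were 22 nt and 10 were 23 nt long. Apart from the goat 5′ strand, every sequence resembled the 3′ strand. This includes ppy-mir-378d-p5_1ss22TG, named as a new 5′ arm of an orangutan hairpin. Its sequence, aaactggacttggagtcagaag, is that of bta-miR-378c_L+2R-1, which holds goat 3′ bases after 2 added ones. Bases at the 3′ end, from position 19 on, were the only ones to differ from the goat strand in 19 sequences (20 names), a boundary chosen after the values were seen. Of these, ssc-miR-378b-3p_L+2_1ss22GC also had 2 bases before the goat start. Differences before position 19 occurred in 12 sequences, and 3 were plain stretches of the goat strand with or without its extension. That extension was taken from the longest listed name, bta-miR-378_R+2, so the extended names could show no difference. It was not compared with a goat hairpin or genome.

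The remaining sequences are shown because their names describe them as substitutions, whereas each equals the goat 3′ strand, in some cases shortened, with 1 base missing.
ppy-miR-378a_1ss12AG: actggacttgggtcagaaggc
ppy-miR-378a_R-1_1ss12AG: actggacttgggtcagaagg
mml-miR-378d_R-1_1ss19AG: actggacttggagtcagaggc
The missing base was number 12 in both ppy names and number 18 or 19, which are the same letter, in the mml name. All these names stayed at low levels, at most 21.5 counts in any library.

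**Figure D1:**
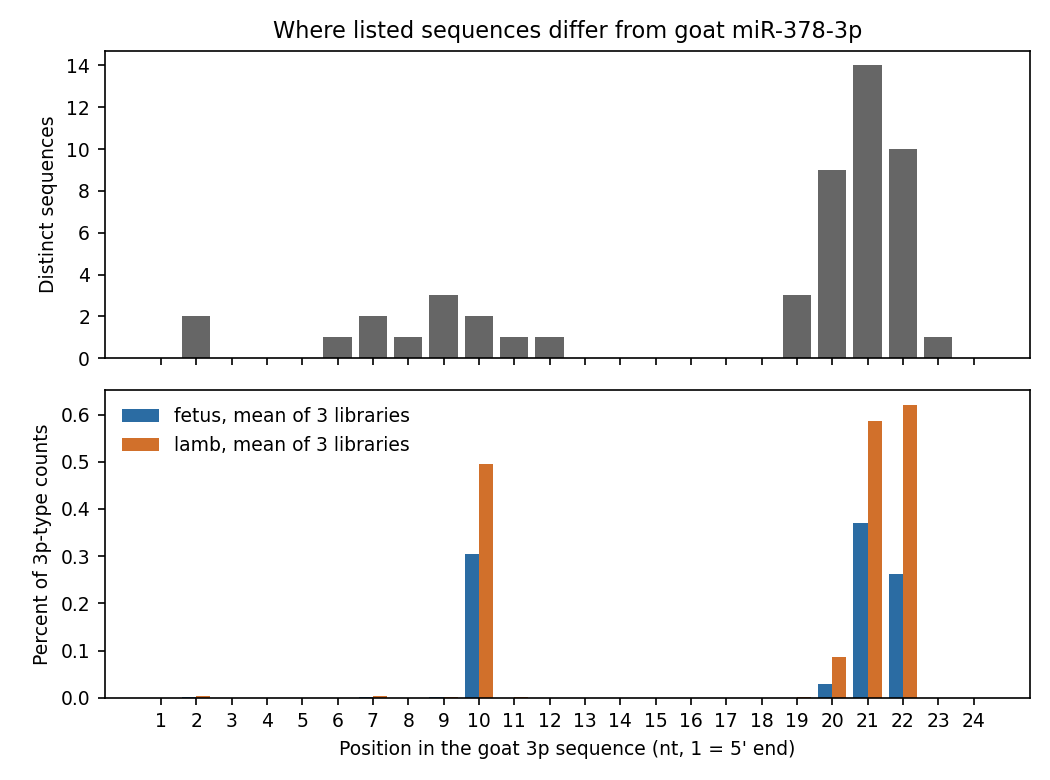
Upper panel, number of distinct miR-378 sequences that differ from goat miR-378-3p at each position (nt from the 5′ end, the listed 3′ extension included, sequences lacking a base left out); lower panel, percent of the counts of all 3′-strand names that carry the difference, as the mean of 3 fetal (blue) and 3 lamb (orange) libraries. Differences gather at positions 20, 21 and 22, with 9, 14 and 10 sequences, and by counts at positions 10, 21 and 22, while positions 13 to 18 show none.

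Leaving out the sequences with a missing base, none differed from the goat strand at positions 13 to 18, and 14 sequences differed at position 21. By counts, position 22 was altered in 0.262% of 3′-strand counts in fetuses and 0.620% in lambs, and position 21 in 0.370% and 0.587%. The internal position 10 was altered in 0.304% and 0.495%, nearly all in 1 name. That substitution, G10T, and the neighbouring G11T were listed only together with a shortened 5′ end, in 3 names. The plot of differences by position shows these sites.

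The seed CTGGACT was shared by 25 names (24 sequences), which carried 97.0% of the family's counts in fetuses and 96.3% in lambs, as means of 3 libraries. A 5′ end shortened by 1 base gives the seed TGGACTT, found in 5 names with 0.317% of counts in fetuses and 0.498% in lambs. The 5′ strand, with the seed TCCTGAC, held 2.68% and 3.19%. Each of the other 8 seeds, in 10 names, held at most 0.0045% of counts at either stage.

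The family took up a larger part of all miRNA counts in lambs. The libraries held 13756954, 9685641 and 8506742 counts in fetuses and 9221583, 6096009 and 9471852 in lambs, so the precision is lowest in lamb replicate 2. Of these, miR-378 names made up 3.68%, 3.72% and 3.51% in fetuses and 10.03%, 9.82% and 8.68% in lambs. Every lamb library lay above every fetal one. In CPM, counts brought to a common library size with edgeR's TMM factors and used for all levels from here on, the summed family level was 33056 ± 2016 in fetuses and 104811 ± 9773 in lambs (SD, n = 3 per stage), 3.17 times as high. In bulk muscle, a change in the share of cells that make a miRNA and a change in its level per cell cannot be told apart.

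The goat 3′ strand carried this sum. Goat miR-378-3p stood at 32503, 30433 and 28345 CPM in the fetal libraries and at 101939.9, 95949 and 84217 in the lamb libraries. The stages did not overlap, and the lowest lamb library lay far above the highest fetal one. The level rose 3.09-fold (log2 1.63 ± 0.11, SE, edgeR quasi-likelihood test, adjusted p = 0.000165). It ranked 5, 3 and 4 among all miRNAs in the fetal libraries and 3 in each lamb library, so the rank hardly changed. Within the family it made up 92.0% ± 0.760 of counts in fetuses and 89.7% ± 0.415 in lambs (SD, n = 3 per stage).

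The 3′ strand longer by a T, bta-miR-378_R+1, stood at 1499, 1372 and 1459 CPM in fetuses and at 6664, 5172 and 5158 in lambs. It rose 3.92-fold (log2 1.97 ± 0.15, SE, adjusted p = 0.000193) without overlap, and from ranks 86, 87 and 83 in fetuses to 25, 30 and 33 in lambs. Goat miR-378-5p, the strand from the other arm, stood at 787, 845 and 1002 in fetuses and at 3206, 3859.7 and 2947 in lambs. It rose 3.80-fold (log2 1.93 ± 0.17, SE, adjusted p = 0.000298), again without overlap. Both arms of the hairpin were thus higher at birth than in the fetus.

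The size of these folds depended on the scaling. Over all 1044 tested miRNAs the median log2 difference was -0.30 with TMM factors, -0.02 with the authors' own factors and -0.58 with library totals. The log2 difference of goat miR-378-3p was 1.63, 1.91 and 1.35 in the same order. Relative to the median of all tested miRNAs it was 1.93 under each of these scalings, and that of goat miR-378-5p was 2.23, 2.23 and 2.22. In the authors' deposited table, goat miR-378-3p had a fetus-to-lamb fold of 0.266 with a t test p = 0.00307.

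**Figure D2:**
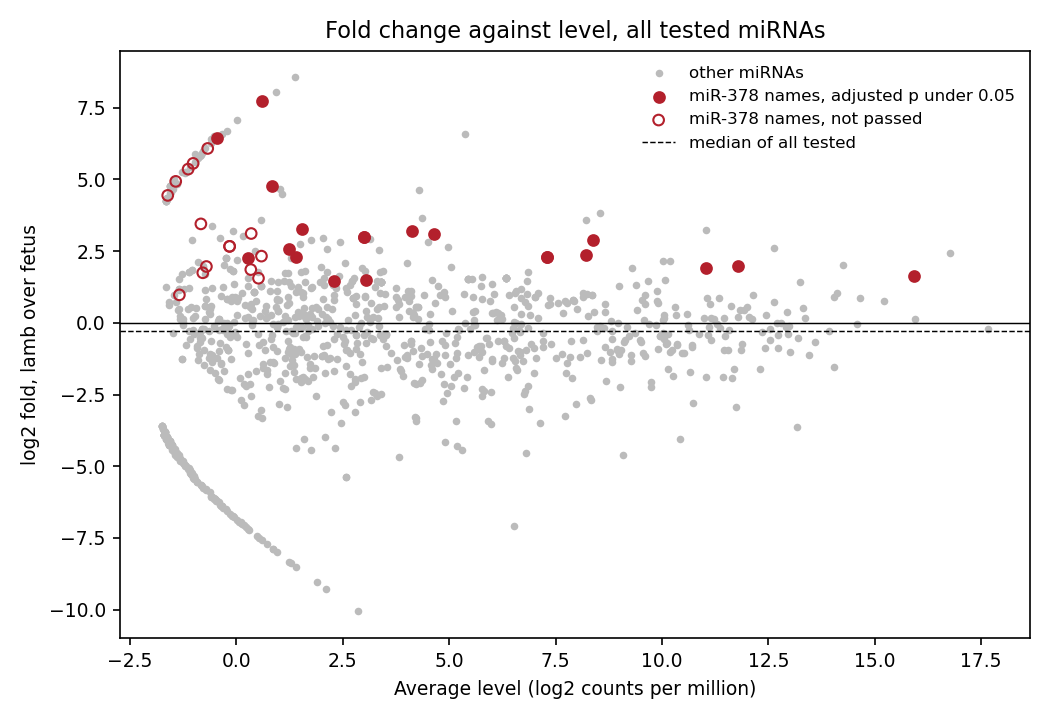
Log2 fold, lamb over fetus (vertical), against average level in log2 CPM (horizontal) for 1044 tested miRNAs, with miR-378 names in red, filled where adjusted p was under 0.05. The 35 tested miR-378 names lie above 0, 7 of them necessarily because they were at 0 in all fetal libraries, and 1 other, hsa-miR-378i_R+1_1ss8TA, turned to -3.32 without lamb replicate 1. The median of all tested miRNAs (dashed) is at -0.30; the curved edges hold names at 0 in 1 stage, whose plotted fold is no measured size.

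Of the 41 names, 35 passed the filter of a mean of 1 count, 20 rose, none fell and 15 did not pass the test. Over all tested miRNAs, 9.39% rose and 20.5% fell, which is 98 and 214 names and 29.9% together. Without fetus replicate 2 these were 53 and 134, without fetus replicate 3 the rises were 56, and without lamb replicate 1 the falls were 136. Of all calls, 31.4% were rises, against 44.6% with the authors' factors, 43.8% with the median of ratios and 20.7% with library totals. The miR-378 names have closely related sequences and some share divided or equal counts, so their count is no set of independent results. Moreover, 7 of the 35 were at 0 in every fetal library and passed the filter through the lamb libraries alone, so that their direction was fixed. Without these, 18 names rose of 28. Every lamb library was above every fetal one for 28 of the 35 tested names, and over all tested miRNAs for 14.9%. The 28 include bta-miR-378_R+2 and bta-miR-378_R+1_1ss20GT, which were at 0 in every fetal library.

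**Figure D3:**
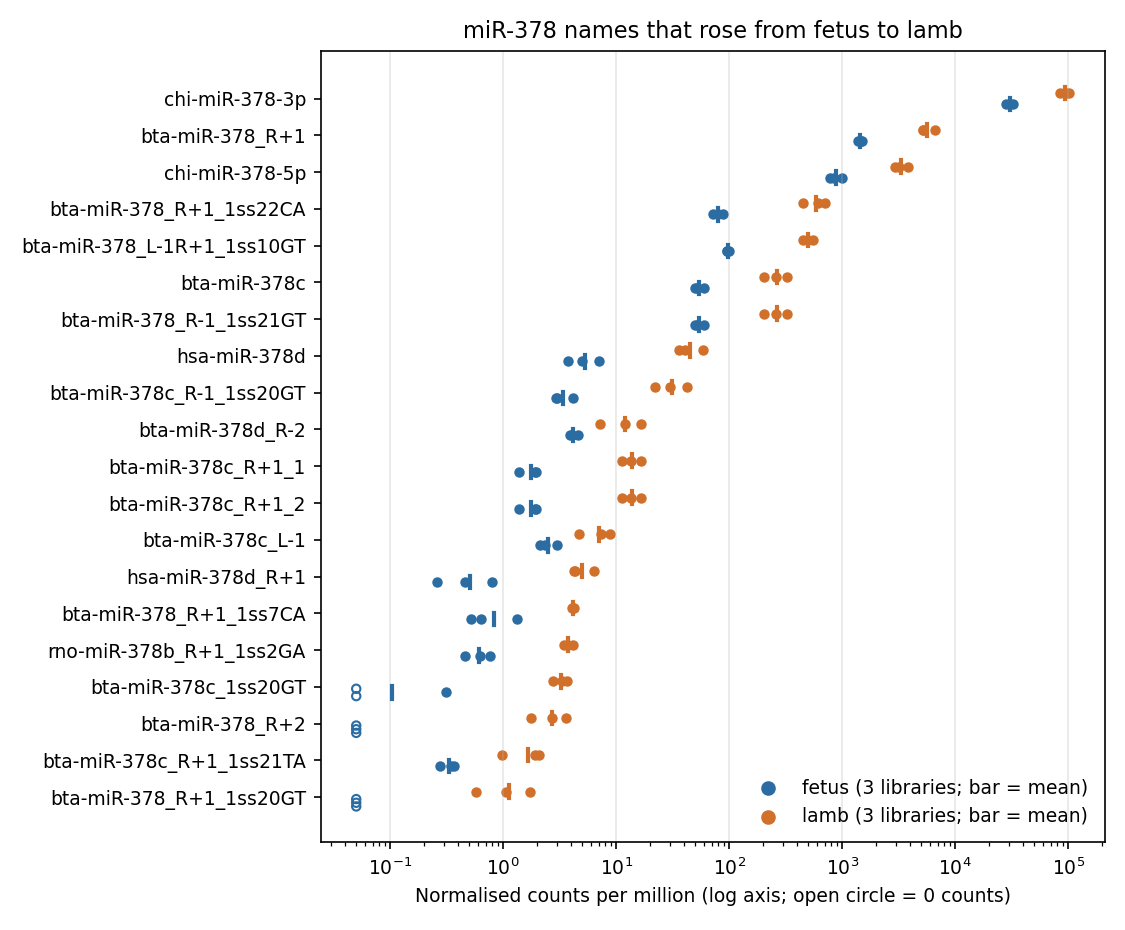
Normalised CPM (horizontal, log axis) of the 20 miR-378 names that rose, with 3 fetal (blue) and 3 lamb (orange) libraries as points, means as bars and counts of 0 as open circles at the left edge. In each of the 20 names all lamb libraries lie right of all fetal ones, over levels from below 1 to 101939.9.

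Of 16 tested names that differ from the goat strand only at its 3′ end, 13 rose, with 11 distinct sets of counts among them because 2 pairs of names had equal counts. This group rests on the boundary chosen after the values were seen, and over all tested miRNAs 9.39% rose. Of the 16, hsa-miR-378d_1ss19AT, hsa-miR-378d_1ss19AG and bta-miR-378_R+1_1ss20GT were at 0 in every fetal library, so their direction was fixed. The last of these is among the 13. The name bta-miR-378_R+1_1ss22CA, which ends in AT in place of CT, stood at 88.0, 78.8 and 72.2 CPM in fetuses and at 608, 452 and 698 in lambs. It rose 7.35-fold (log2 2.88 ± 0.23, SE, adjusted p = 0.000208), with no overlap. The sequence of bta-miR-378c, which equals the goat strand to base 20 and then ends in T (G21T), was also listed as bta-miR-378_R-1_1ss21GT. Its counts were divided evenly between both names, each at 59.4, 49.8 and 51.6 in fetuses and at 261, 204 and 325 in lambs. Each rose 4.91-fold (log2 2.30 ± 0.24, SE, adjusted p = 0.00062).

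Forms that end after goat base 19 with another base were lower in level. The name hsa-miR-378d, with an A at this place (G20A), stood at 7.10, 4.99 and 3.75 CPM in fetuses and at 40.7, 35.7 and 58.0 in lambs. It rose 8.48-fold (log2 3.08 ± 0.36, SE, adjusted p = 0.000959). The name bta-miR-378c_R-1_1ss20GT, with a T at the same place, stood at 4.12, 3.02 and 2.92 in fetuses and at 30.2, 22.0 and 42.0 in lambs, and rose 9.29-fold (adjusted p = 0.000774). Neither overlapped between stages, and lamb replicate 3 was the highest library for both.

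Longer forms of the same ends rose as well. The names bta-miR-378c_R+1_1 and bta-miR-378c_R+1_2, which end in TA and TT after goat base 20, were deposited with equal counts although their sequences differ, so they were not counted apart. Each stood at 1.94, 1.37 and 1.93 CPM in fetuses and at 13.6, 11.3 and 16.6 in lambs, a 7.98-fold rise (adjusted p = 0.000774). The name hsa-miR-378d_R+1, which ends in AA after base 19, stood at 0.797, 0.458 and 0.260 in fetuses and at 4.30, 4.27 and 6.37 in lambs (9.54-fold, adjusted p = 0.00511). The name bta-miR-378c_1ss20GT, which ends in TT after base 19, was at 0.312, 0 and 0 in fetuses and at 3.69, 3.29 and 2.75 in lambs (adjusted p = 0.0125). Its fetal level rests on 4.5 counts in 1 library, and its call was lost with same-numbered libraries as a block (adjusted p = 0.0530). The name bta-miR-378c_R+1_1ss21TA, with AT after base 20, was at 0.347, 0.275 and 0.365 in fetuses and at 1.91, 0.978 and 2.06 in lambs (4.81-fold, adjusted p = 0.0416). The last call was lost without any single library other than lamb replicate 2 (adjusted p = 0.0834 to 0.130), and with library totals (adjusted p = 0.0640). With the block it was lost as well (adjusted p = 0.193). All these lamb levels exceeded the fetal ones in every library.

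The smallest folds among the names that rose belonged to a pair lacking the first goat base. The name bta-miR-378d_R-2 stood at 3.88, 4.58 and 4.06 CPM in fetuses and at 11.9, 7.12 and 16.5 in lambs, a 2.84-fold rise (log2 1.51 ± 0.38, SE, adjusted p = 0.022). The name bta-miR-378c_L-1 stood at 3.01, 2.33 and 2.14 in fetuses and at 7.37, 4.71 and 8.83 in lambs, a 2.76-fold rise (log2 1.47 ± 0.38, SE, adjusted p = 0.0249). Neither overlapped between stages, but the gap between the highest fetal and the lowest lamb library was narrow in both. The call of bta-miR-378d_R-2 was lost without any 1 of the fetal libraries or without lamb replicate 3 (adjusted p = 0.0525 to 0.0842). That of bta-miR-378c_L-1 was lost without any single library other than lamb replicate 2 (adjusted p = 0.0512 to 0.0998). With same-numbered libraries as a block both calls were lost (adjusted p = 0.0777 and 0.0818 in the same order).

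Among forms with an altered inner base, bta-miR-378_L-1R+1_1ss10GT was by far the highest. It stood at 99.0, 95.6 and 96.4 CPM in fetuses and at 554, 499 and 448 in lambs, and rose 5.16-fold (log2 2.37 ± 0.18, SE, adjusted p = 0.000193). Its fetal libraries were almost equal, and all lamb libraries lay well above them. No name was listed for the same ends without the substitution. The name bta-miR-378_R+1_1ss7CA, with an altered seed, stood at 1.32, 0.641 and 0.521 in fetuses and at 4.06, 4.27 and 4.13 in lambs (4.89-fold, adjusted p = 0.0112). Its call was lost without fetus replicate 2 (adjusted p = 0.0569) and with same-numbered libraries as a block (adjusted p = 0.0527). The rat entry rno-miR-378b_R+1_1ss2GA, also with another seed base, stood at 0.762, 0.458 and 0.625 in fetuses and at 3.44, 3.74 and 4.13 in lambs (5.99-fold, adjusted p = 0.00476).

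A pair of the 20 names was at 0 counts in every fetal library. Both passed the filter through the lamb libraries alone, so that they could only be higher in lambs. The 3′ strand longer by TG, bta-miR-378_R+2, had 29.5, 10 and 23.5 counts in lambs, which was 3.63, 1.78 and 2.70 CPM (adjusted p = 0.00423). Against a floor of 3 counts over the fetal libraries together, it was at least 32.7-fold higher. With same-numbered libraries as a block the call of bta-miR-378_R+2 was lost (adjusted p = 0.0752). The name bta-miR-378_R+1_1ss20GT had 14, 6 and 5 counts in lambs (adjusted p = 0.0337), at least 12.96-fold higher by the same floor. Its call was lost without any single library (adjusted p = 0.0531 to 0.142) and with the same block (adjusted p = 0.266). The floor covers counting error only.

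The other 21 names were low. In all, 13 names were at 0 in every fetal library, none was at 0 in every lamb library, 19 were counted in all 6 libraries and 4 in a single one. The 6 names below the filter had a mean of at most 0.833 counts. Among tested names that did not pass, ppy-miR-378a_1ss12AG was at 10, 0 and 6 counts in fetuses and 11, 21.5 and 13.5 in lambs (adjusted p = 0.149), and bta-miR-378_R+1_1ss9TA was at 6, 5 and 5 against 17, 8 and 14 (adjusted p = 0.0564). With the authors' factors the second of these passed (adjusted p = 0.0338), and so it did without lamb replicate 2 (adjusted p = 0.0458) and in DESeq2 (adjusted p = 0.0263).

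More miR-378 names were counted in lambs although more miRNA names of all kinds were counted in fetuses. The fetal libraries held 28, 22 and 21 of the 41 names and the lamb libraries 37, 31 and 37, which is 23.7 ± 3.79 and 35 ± 3.46 (SD, n = 3 per stage). With at least 10 counts required, 18, 13 and 13 names remained in fetuses and 24, 20 and 25 in lambs. Over the whole table the fetal libraries held 955, 900 and 864 names and the lamb libraries 800, 780 and 820. Of the 41 names, 13 were on the list through lamb libraries alone and none through fetal libraries alone, so the list itself favours lambs. Between the stages, the number of names was higher where the level of the main strand was higher, and within fetuses both had the same order. Within lambs they did not: replicate 3, with the lowest level (84217 CPM), held 37 names and replicate 2 (95949 CPM) held 31. Lamb replicate 2 had the fewest counts of all libraries (6096009). The parts of level and of library size in the number of names were not tested.

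Of the 8 sequences next in level to the main strand, 6 had a higher ratio to it in every lamb library than in every fetal one, though no ratio passed a test. Per 1000 counts of goat miR-378-3p, bta-miR-378_R+1_1ss22CA had 2.71, 2.59 and 2.55 in fetuses and 5.96, 4.72 and 8.29 in lambs, 2.42 times as high. The G10T form had 3.05, 3.14 and 3.40 in fetuses and 5.44, 5.197 and 5.32 in lambs, 1.66 times as high and close to equal within each stage. Both names of the bta-miR-378c sequence together had 3.65, 3.27 and 3.64 in fetuses and 5.11, 4.26 and 7.72 in lambs. In all of these the stages did not overlap.

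The ratio of hsa-miR-378d to the main strand was 0.172 ± 0.0436 per 1000 in fetuses and 0.487 ± 0.176 in lambs, and that of bta-miR-378c_R-1_1ss20GT was 0.110 ± 0.0150 and 0.341 ± 0.141 (SD, n = 3 per stage). The 1-base extension bta-miR-378_R+1 had 47.6 ± 3.42 and 60.2 ± 5.81. These also did not overlap. The ratio of the 5′ to the 3′ strand overlapped, with 24.2, 27.8 and 35.4 per 1000 in fetuses and 31.5, 40.2 and 34.999 in lambs (exact permutation p = 0.30), and so did that of bta-miR-378d_R-2, with 0.138 ± 0.0162 and 0.129 ± 0.0619 (exact permutation p = 0.90). For the 6 ratios without overlap, p was 0.10 in this two-sided exact permutation test, the smallest that 3 against 3 libraries allow, and 0.133 adjusted over 8 ratios, so none could pass 0.05.

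**Figure D4:**
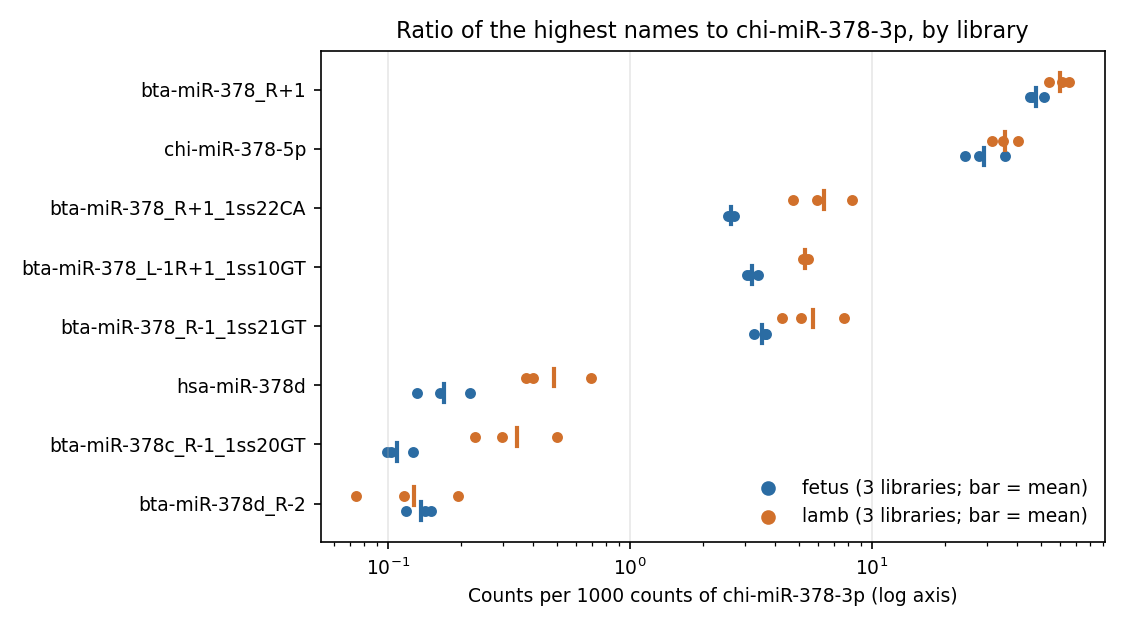
Counts per 1000 counts of chi-miR-378-3p (horizontal, log axis) for the 8 sequences next in level, with 3 fetal (blue) and 3 lamb (orange) libraries as points and means as bars; the row of bta-miR-378_R-1_1ss21GT adds both names of its sequence. In 6 rows the stages do not overlap, and in the rows of chi-miR-378-5p and bta-miR-378d_R-2 they do.

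Summed over the family, names with a substitution carried 0.731%, 0.699% and 0.728% of counts in fetuses and 1.30%, 1.13% and 1.63% in lambs. Sequences that differ from the goat strand only from position 19 on carried 0.671%, 0.613% and 0.641% of 3′-strand counts in fetuses and 1.14%, 0.940% and 1.67% in lambs. Sequences with a shortened 5′ end carried 0.326% ± 0.0161 and 0.516% ± 0.0124 (SD, n = 3 per stage). Lamb replicate 3 was the highest for the first and second of these shares, and no share overlapped between stages.

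Among 220 other names with a mean level of at least 100 CPM, those whose log2 profile over the 6 libraries lay nearest to that of goat miR-378-3p were cgr-miR-486-5p_R+2, chi-miR-27b-3p, chi-miR-126-5p_R-1, sbo-miR-486b_R+1_1ss23CG and bta-miR-486_R+1. Their root-mean-square distances after centring were 0.194 to 0.243 on the log2 scale. Of these, 3 are forms of miR-486. The log2 differences of the 5 names were 1.42 to 2.01. Because the names were picked by their profile over the same libraries, rises of about the size of that of goat miR-378-3p follow from the choice.

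The defining miRNAs of skeletal muscle were present at both stages, with chi-miR-133a-3p at 34876 ± 4270 CPM in fetuses and 189693 ± 34020 in lambs (SD, n = 3 per stage). Of 16 tested names of the striated muscle list (miR-486, miR-499, miR-206, miR-1 and all forms of miR-133 and miR-208), 7 rose and 1 fell, with a median log2 difference of 1.53, beside -0.30 over all tested miRNAs. The list takes miR-486 without a letter, so it leaves out sbo-miR-486b_R+1_1ss23CG, which rose (log2 1.78, adjusted p = 0.00407). Markers of other cells moved between the stages too. The summed level of the blood cell list was 336 to 439 in fetuses and 661 to 1207 in lambs (2 of 10 names rose, 2 fell). That rise was carried by chi-miR-150, at 49.9 ± 10.04 and 702 ± 268 (SD, n = 3 per stage), and without it the sum was 292 to 379 in fetuses and 153 to 211 in lambs. The summed level of endothelial miR-126 was 1696 to 2239.9 and 3406 to 3543 (2 of 3 rose). That of the stroma and smooth muscle list was 37777 to 45752 and 19728 to 29885 (3 of 11 rose, 4 fell). Liver miR-122 was at 0 in every fetal library and at most 10.2 in a lamb library. The part of these cells in the miR-378 levels was not tested.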

How the data were processed

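Small RNA libraries were prepared with a TruSeq kit and size-selected on a gel, per the labels' protocols. The aligner and the miRBase release used are not given, nor is a goat genome build; the only build in the submitters' processing notes is mm9. The deposited table gives, per the file headers, raw read counts per name, here treated as estimated counts, because only 88.0% of the deposited counts were whole (within 1e-06). It also gives normalised values (a signal), which the authors made by multiplying each library's counts by 1 factor, and the authors' fetus-to-lamb fold, its log2 and a t test p-value. How the factors were set is not given. The class of each name (identical, differing, new) is the authors' own. One name outside the family had no level. Libraries were assigned by title.

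Counts were rounded and names with a mean below 1 count left out (1044 of 1119 tested). edgeR's quasi-likelihood test (edgeR 4.0.16, R 4.3.3, TMM factors, stage as the only term, all 6 libraries) was adjusted by Benjamini-Hochberg over all tested names. Each SE of a log2 difference was derived from this test, as the absolute log2 difference divided by the square root of the test's F statistic. DESeq2 1.42.0 was an alternative. The fit was also run on simulated counts, and the outcome is not given here. Tables were handled with pandas 2.3.3 and numpy 2.4.6 in Python 3.11.15, and exact tests were run over all 20 assignments of libraries. Replicate libraries differed by far more than sampling noise (chi-square per degree of freedom at least 91.4). Members and lists were chosen with earlier results of these data known. For that reason no p is given for sums or shares over the members, although an exact permutation test of the sum and of the number of names had been planned. Given with values in every library are goat entries, names past adjusted p 0.05 and the 10 highest names. The 5 names nearest in profile were found with log2(level + 1).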

Additional observations from a re-analysis of the deposited data

How the results depend on the processing

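None of the 20 names that rose reversed under any alternative. The name hsa-miR-378i_R+1_1ss8TA (5 fetal and 6 lamb counts in all), which did not pass the test, turned to a log2 difference of -3.32 without lamb replicate 1. The 3 highest miR-378 names, and 10 others of the 20 that rose, rose in all 14 alternatives. For the remaining 7 the lowest count was 6 of 13 alternatives (bta-miR-378c_R+1_1ss21TA and bta-miR-378_R+1_1ss20GT). Leaving out 1 library at a time gave 15 to 22 miR-378 names that rose, and over all miRNAs 53 to 112 that rose and 134 to 216 that fell. With same-numbered libraries as a replicate block, 13 miR-378 names rose, and over all miRNAs 57 rose and 138 fell. The remaining 7 lost their call there (adjusted p = 0.0527 to 0.266). Correlations of same-numbered libraries' deviations were 0.145, 0.190 and -0.209, and those of differently numbered ones -0.384 to 0.294. With 3 libraries per stage these values cannot show or exclude a pairing, and the labels state none. DESeq2 called 158 rises over all miRNAs (23 miR-378 names), against 98. The log2 difference of the summed family level was 1.66, and 1.95 with the authors' factors, 1.91 with the median of ratios and 1.38 with library totals (the last chosen after seeing the data, as was adding up equal sequences). Without names that carry a substitution, without new arms or with each sequence once, it moved by less than the spread between libraries. Leaving out 1 library gave 1.60 to 1.74 for the summed level, 0.498 to 0.750 percentage points for the difference in the share of substitutions and 10 to 13.5 for that in names counted. Goat entries alone carry no substitution, so that alternative gave no share. Alternatives for the pseudocount of the test were not run, because it used counts, and the pseudocount of the profile distances was not varied.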
